A study of Mus musculus with 2 samples.

Results

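Alcohol dehydrogenases (Adh), aldehyde dehydrogenases (Aldh) and aldo-keto reductases (Akr) were examined as 3 gene families in mouse liver. Members were all genes whose single symbol in the platform annotation starts with Aldh, Adh or Akr followed by a digit, together with Adhfe1. This gave 43 members among 18193 named genes: 20 Aldh, 8 Adh and 15 Akr genes. The livers came from C57BL/6J mice aged 2 months, killed 3 days after tail vein injection of 1000000000 plaque-forming units of adenovirus. The Ad-control group received an empty vector and the Ad-PDK4 group a vector made to overexpress PDK4, a kinase that inactivates the pyruvate dehydrogenase complex; both groups therefore carried virus. Livers of 4 Ad-control mice and of 3 Ad-PDK4 mice were pooled within each group, so each group is 1 pool on 1 array. The spread between animals is not measured, no difference was tested and no p-value is given.

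Alcohol dehydrogenases oxidize alcohols such as ethanol and retinol to aldehydes, with NAD as the acceptor. Aldehyde dehydrogenases carry the aldehyde on to the acid, and individual members serve retinoic acid synthesis, folate metabolism, fatty aldehyde removal and the breakdown of amino acids. Aldo-keto reductases mostly work in the opposite direction, reducing carbonyl groups of sugars, lipid aldehydes, steroids and bile acid precursors with NADPH. In liver, hepatocytes hold most of these activities.

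Each probe set, a group of short probes that read 1 transcript, has 1 linear signal per array, and a gene is represented by its brightest probe set. A signal under the median of its array (93.4 for Ad-control, 99.9 for Ad-PDK4) was treated as not measurable (the floor). Differences are log2, Ad-PDK4 minus Ad-control, centred on the median probe set. Probe sets of the same gene disagreed with a pooled SD of 0.35 over 4326 genes (the probe set SD). It pools all signal levels and does not measure variation between animals or pools. The spread of all named genes at similar signal is given beside it below. The single probe set of Pdk4 read 234 in the control pool and 177 in the pool labelled Ad-PDK4 (log2 difference -0.39). Overexpression of PDK4 was thus not seen on that probe set. Whether it reads the vector's transcript is not known, so these arrays cannot show whether the vector raised PDK4. The pools are called by their labels. All 11 measured pancreatic acinar markers read higher with Ad-PDK4, with a median of 3.08 and a summed signal of 11205 against 89328. The 6 measured proliferation markers were also higher, with a median of 3.58 and a summed signal of 1381 against 16693, and 5 of 6 skeletal muscle markers were at least 1.5-fold lower. The 15 hepatocyte markers were bright on both arrays, with a median of -0.09, and 15 of 15 lay within 1.5-fold. Of 6 Kupffer cell and macrophage markers, 2 were at least 1.5-fold lower, Clec4f (-1.13) and Vsig4 (-1.19), and the median was -0.02. Of 7 endothelial markers 1 was higher and 1 lower by that fold (median -0.09), and of 7 stellate cell markers 1 was higher (median -0.21). The part of these tissue differences in the values below was not tested. In pooled tissue, fewer cells of a type and less RNA per cell cannot be told apart.

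Of the 43 members, 32 were measured on both arrays, 3 with Ad-PDK4 alone, 1 with Ad-control alone and 7 in neither. The share measured on both arrays was 74.4% for the members and 57.1% for all named genes. By signal the families were among the brighter transcripts of the liver: 21 members (48.8%) were in the top 1000 named genes, a group that holds 5.50% of all named genes. Signal also depends on the probes, so this order is one of brightness and not of transcript abundance.

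The promoter windows of the 3 members that differed by at least 1.5-fold on both arrays' measured signals, Adh7, Aldh16a1 and Akr1c14, are shown with that of Aldh9a1, which holds both motifs that were searched. The window of Aldh1a2, which is not shown, also holds both. Each window is the 250 bases before a RefSeq start (build GRCm38.p6), written in the direction of the gene. Capitals mark a match on either strand to TGACNNNGC, the core of the antioxidant response element bound by NRF2, or to GCGTG, the core of the dioxin response element bound by the aryl hydrocarbon receptor. The motifs can overlap by the letters GC, which did not occur in these windows.
Adh7 (chr3:138217523-138217772, plus strand): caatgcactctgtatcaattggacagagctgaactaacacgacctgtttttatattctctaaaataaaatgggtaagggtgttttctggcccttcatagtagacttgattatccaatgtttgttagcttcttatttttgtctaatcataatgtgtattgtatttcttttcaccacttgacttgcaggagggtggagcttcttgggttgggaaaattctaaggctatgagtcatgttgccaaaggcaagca
Aldh16a1 (chr7:45154537-45154786, minus strand): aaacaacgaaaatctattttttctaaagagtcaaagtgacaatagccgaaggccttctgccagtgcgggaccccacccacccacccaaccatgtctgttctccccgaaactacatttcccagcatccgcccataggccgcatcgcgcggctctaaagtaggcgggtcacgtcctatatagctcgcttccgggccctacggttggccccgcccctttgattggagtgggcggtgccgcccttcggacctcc
Akr1c14 (chr13:4059341-4059590, plus strand): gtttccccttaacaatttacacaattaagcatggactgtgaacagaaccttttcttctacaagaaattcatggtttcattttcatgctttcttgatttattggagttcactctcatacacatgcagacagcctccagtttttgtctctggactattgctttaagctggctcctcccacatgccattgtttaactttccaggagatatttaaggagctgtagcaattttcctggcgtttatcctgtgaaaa
Aldh9a1 (chr1:167349741-167349990, plus strand): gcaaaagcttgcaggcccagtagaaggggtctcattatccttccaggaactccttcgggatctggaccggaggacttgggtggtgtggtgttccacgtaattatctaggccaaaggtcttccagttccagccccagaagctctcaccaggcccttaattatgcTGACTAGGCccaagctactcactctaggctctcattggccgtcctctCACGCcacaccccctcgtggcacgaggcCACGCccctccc
In Aldh9a1 the first motif begins 87 bases before the start, and GCGTG, read on the opposite strand, begins 40 and 12 bases before it. No match to either motif lies in the windows of Adh7, Aldh16a1 and Akr1c14. RefSeq windows were matched for 33 members (36 windows). TGACNNNGC was in 4 of the 36 (11.1%) and in 10.2% of the 32851 windows of all genes, and GCGTG was in 6 (16.7%) and in 28.2%. These matches describe letters in a window and not a bound site.

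The brightest member was Adh1, the classical ethanol-oxidizing alcohol dehydrogenase of liver, with signals of 76537 (Ad-control) and 66958 (Ad-PDK4), rank 29 among all named genes. It was followed by Aldh1a1, a cytosolic retinal dehydrogenase (54191 and 55743, rank 55), and Akr1a1, the aldehyde reductase that serves ascorbate synthesis in mice (51700 and 51557, rank 65). Next in order were Akr1c6, a hydroxysteroid dehydrogenase (49952 and 51961), and Aldh2, the mitochondrial enzyme that clears acetaldehyde (43880 and 35345). Akr1a1 read above Akr1c6 on one array and below it on the other, so the order of these neighbours is not settled. In the control pool the other probe sets of Akr1a1 read 22753, 20832 and 12412, and the next brightest of Aldh2 read 1058. The ranks of both genes thus rest on their brightest probe set. In all, 15 members had a signal over 10000 on both arrays. At the other end Aldh1a2, Aldh1a3, Aldh3a1, Akr1b10, Akr1c18, Adh6a and Adh6b were under the floor on both arrays, with the highest signal at 90.3, and have no difference. Aldh1a2 and Aldh1a3 are the retinal dehydrogenases of embryonic and epithelial tissues, and Aldh3a1 is the abundant form of the cornea.

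**Figure D1:**
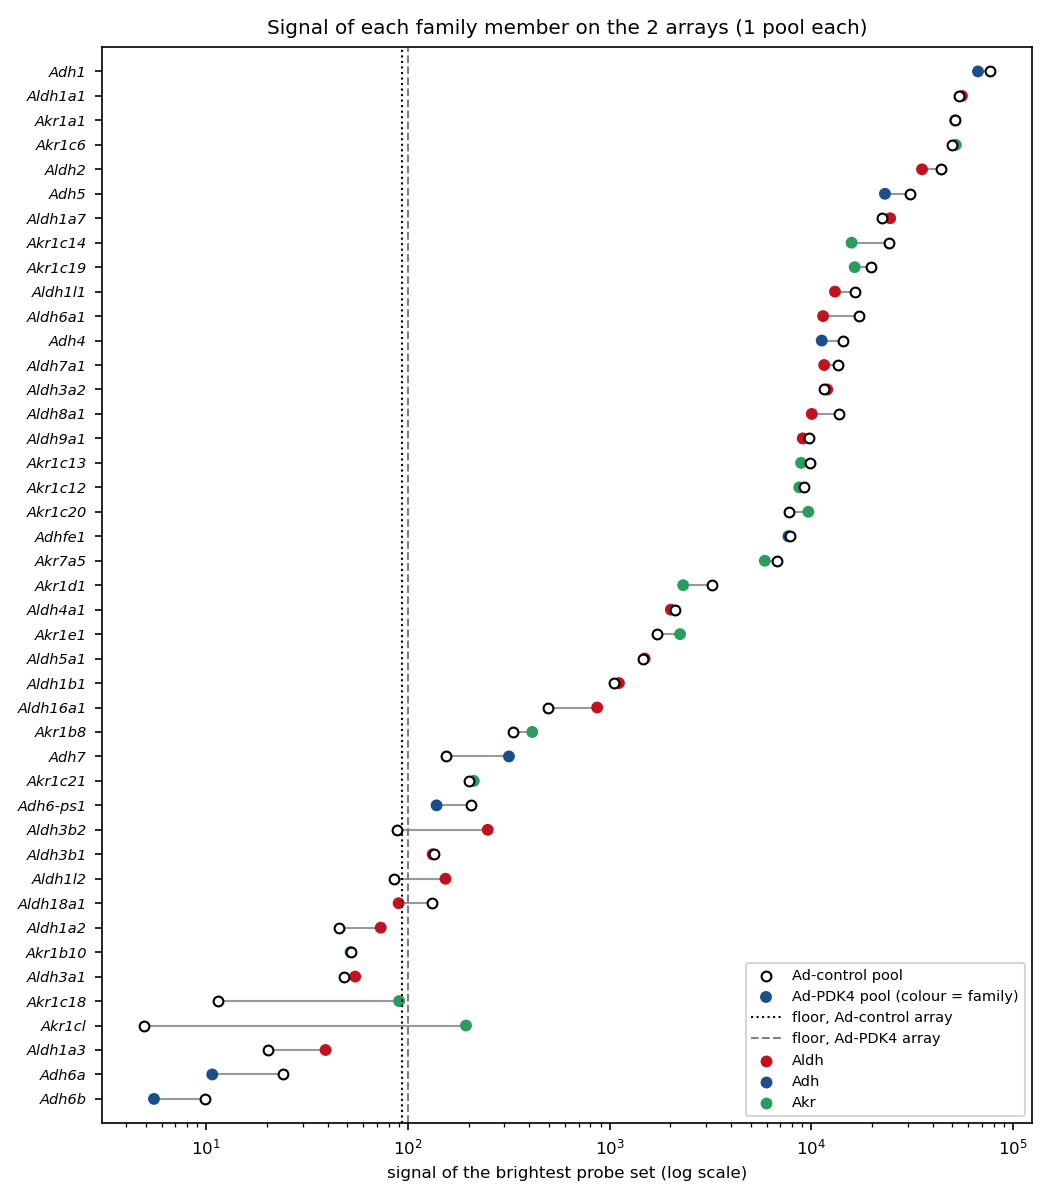
Signal of the brightest probe set (log scale) of all 43 members on the Ad-control array (open circles) and the Ad-PDK4 array (filled circles, coloured by family), ordered by mean log2 signal. Vertical lines mark the floors of 93.4 and 99.9; the bright members from Adh1 to Akr7a5 lie well to the right, and 7 members lie left of the floor on both arrays.

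Most members were at a similar level in both pools. Of the 32 measured on both arrays, 2 were at least 1.5-fold higher in the pool labelled Ad-PDK4 (6.25%), against 9.21% of all 10389 named genes measured on both arrays. One member (1; 3.13%) was at least 1.5-fold lower, against 5.2% of all genes, and 29 lay within 1.5-fold. Both shares are below the background, so the families did not stand out by their number of large differences. Their median was -0.06, against 0.01 for all named genes; it was 0.46 when centred on the poly-A spike-in controls, where the median of all named genes was 0.53, and 0.03 when centred on the hepatocyte markers (0.10 for all). No member (0 of 32) lay outside the central 95% of the differences of all named genes in its bin of signal, with genes divided into 5 bins of equal number.

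Among the brightest genes, more members were below 0 than above it. Of the 22 members in the brightest bin (mean signal from 2259), 16 (72.7%) were below 0, as were 59.8% of all 2078 genes of that bin. Their median was -0.18 against -0.06 for the bin. A difference of at least the probe set SD towards lower signal was seen in 5 of the 22 (22.7%), Akr1c14, Aldh6a1, Akr1d1, Aldh8a1 and Adh5, and in 11.8% of the bin, and one towards higher signal was seen in 0 of the 22 and in 7.60% of the bin. These counts of members depend on the centring. With quantile normalization Aldh8a1 (-0.34) and Adh5 (-0.29) fell short of the SD, and Akr1c20 (0.41) exceeded it upwards. With loess centring Adh5 was at -0.30 and Akr1c20 at 0.40. Centred on the hepatocyte markers, Aldh8a1 was at -0.34, Adh5 at -0.30 and Akr1c20 at 0.43. The central 95% of that bin ran from -0.61 to 0.63, so Akr1c14 and Aldh6a1 lay close to its lower edge.

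**Figure D2:**
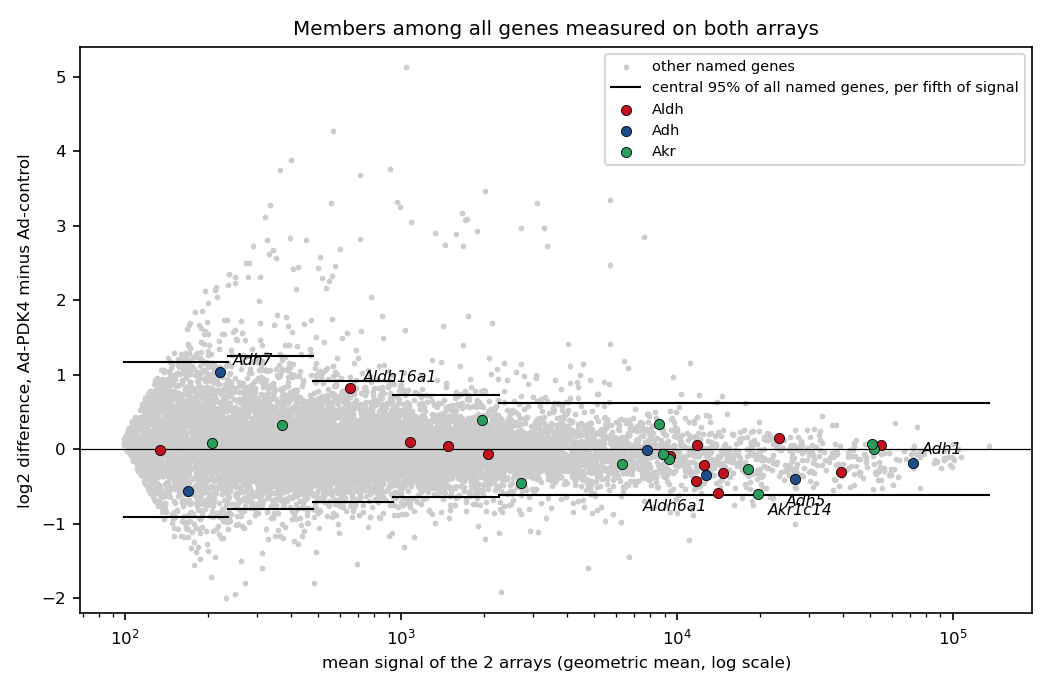
Log2 difference between the pools (Ad-PDK4 minus Ad-control) against mean signal (log scale) for all 10389 named genes measured on both arrays (grey) and the 32 members (coloured by family). Black lines bound the central 95% of all named genes in each of 5 bins of signal; all members lie between them, with Adh7 and Aldh16a1 on the high side and Akr1c14 and Aldh6a1 on the low side.

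The alcohol dehydrogenases of liver read slightly lower after Ad-PDK4, and Adh7 read higher. Adh1 differed by -0.18, or by -0.03 with quantile normalization and -0.05 with loess centring. Adh4, the class II enzyme, read 14359 in the control pool and 11247 in the Ad-PDK4 pool, a difference of -0.34. Adh5, the class III enzyme that oxidizes the glutathione adduct of formaldehyde and reduces S-nitrosoglutathione, read 30693 and 23145, a difference of -0.39. Only that of Adh5 exceeds the probe set SD. It fell under that SD with quantile normalization (-0.29), loess centring (-0.30) and centring on the hepatocyte markers (-0.30). Adh6-ps1, a transcribed pseudogene, was near the floor with 206 and 139 (-0.56). Adhfe1, a mitochondrial transhydrogenase of hydroxy acids, read 7836 and 7690 (-0.01), and its second measured probe set gave 0.18. Of 6 measured Adh members, 5 were below 0, as were 5031 of all 10389 named genes measured on both arrays. The median of the 6 was -0.26, or -0.14 with quantile normalization and -0.16 with loess centring. It turned to 0.26 with centring on the spike-in controls, still under the 0.53 of all named genes there.

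Adh7, the class IV enzyme known from stomach epithelium and active on retinol and ethanol, had the highest difference of all members measured on both arrays. Its brightest probe set read 155 in the control pool and 316 in the Ad-PDK4 pool, 2.06-fold higher (1.04), and its other probe set read 139 and 200 (0.54). Both probe sets point the same way, but signals this close to the floor vary widely: the central 95% of all genes in the dimmest bin ran from -0.90 to 1.18. A floor at the 70th percentile leaves only a bound of 0.18 for Adh7. Of the 7 stomach and gut markers, 4 were under the floor on both arrays (Atp4a, Gkn1, Muc5ac and Vil1), and the summed signal of the list was 9199 against 13469. The trefoil peptide gene Tff1 (603 and 864, a difference of 0.53) and the fatty acid-binding protein gene Fabp2 (8390 and 12332, 0.57) were measured on both arrays. The pepsinogen gene Pgc read 42.1 and 109. Their part in the value of Adh7 was not tested.

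In RefSeq the Adh genes other than Adhfe1 lie in one stretch of chromosome 3, in the order Adh7, Adh1, Adh6a, Adh6b, Adh6-ps1, Adh4 and Adh5. Of the neighbours Adh7 and Adh1, the first was near the floor and the second was the brightest member, and they differed in opposite directions. The 3 members of this stretch with a signal over 10000 on both arrays, Adh1, Adh4 and Adh5, all read lower in the pool labelled Ad-PDK4. Of all genes in the brightest bin, 59.8% were also below 0.

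**Figure D3:**
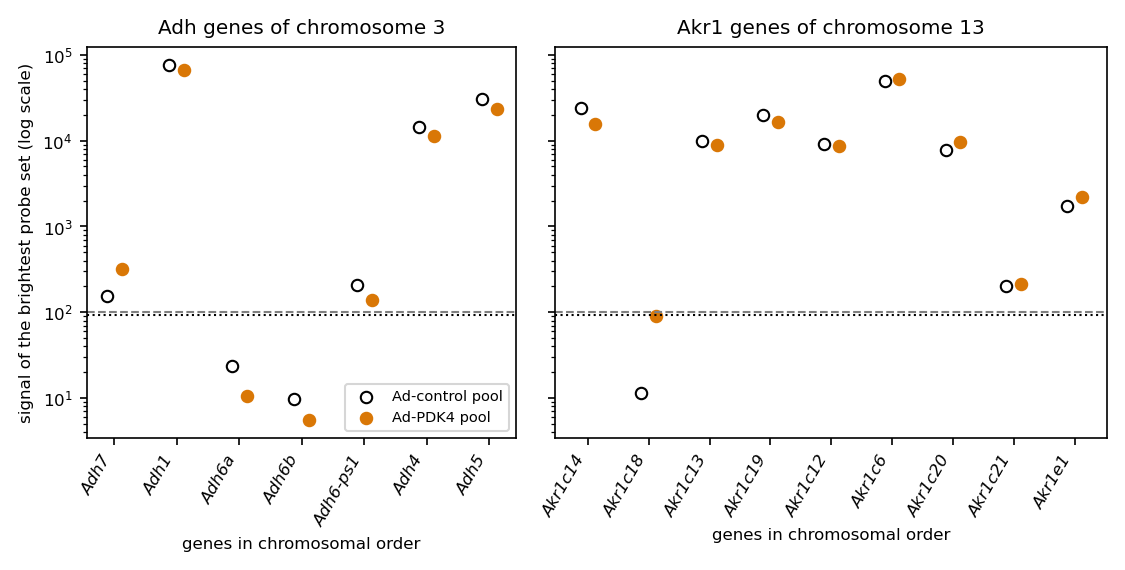
Signal of the brightest probe set (log scale) on the Ad-control array (open circles) and the Ad-PDK4 array (orange) for the Adh genes of chromosome 3 and the Akr1 genes of chromosome 13, in chromosomal order; dotted and dashed lines are the floors. Bright and dim genes lie side by side in both stretches, Adh1, Adh4 and Adh5 read lower with Ad-PDK4, and in the Akr1 stretch Akr1c14 is lower while Akr1c6 is at a similar signal.

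Retinal and acetaldehyde dehydrogenases differed little. Aldh1a1 differed by 0.06. Aldh1a7, its close relative and near neighbour on chromosome 19, read 22285 and 24571 (0.16); sequences this alike can share probes, so the signals of these genes may not be separate. The brightest probe set of Aldh2 gave -0.30, but its other 4 measured probe sets, all much dimmer, ranged from -0.11 to 0.16, so the direction of Aldh2 is not settled. Aldh1b1, the other mitochondrial enzyme of acetaldehyde and retinal, read 1051 and 1111 (0.09).

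The folate-linked enzymes stood on different sides. Aldh1l1, the cytosolic formyltetrahydrofolate dehydrogenase, read 16406 in the control pool and 13082 in the Ad-PDK4 pool (-0.31), and its dimmer probe set gave -0.09. Aldh1l2, its mitochondrial counterpart, read 84.8 and 153, under the floor on the Ad-control array, and was at least 1.66-fold higher. A gene seen on 1 array only was picked by where its signals stood against the floors, so this bound is a value and not a count towards the families.

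Among fatty aldehyde enzymes, Aldh3a2, the fatty aldehyde dehydrogenase of the endoplasmic reticulum, read 11569 and 11980 (0.07). Aldh3b1 was just above the floor on both arrays, with 134 and 132. Aldh3b2, which lies close to Aldh3b1 on chromosome 19, read 88.4 and 248 and was at least 2.69-fold higher by its bound. Of 2 further probe sets that match both Aldh3b2 and Aldh3b3, both were under the floor on both arrays, with 31.9 and 98.4 for one and 63.7 and 69.5 for the other.

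The aldehyde dehydrogenases of amino acid and other pathways had no common direction. Of 7 measured on both arrays, 5 were below 0, as were 5031 of all 10389 named genes measured on both arrays. At least 1.5-fold higher was 1 (14.3%, against 9.21% of all named genes), and 0 were lower by that fold (5.2% of all). Their median was -0.09. Aldh6a1, the methylmalonate semialdehyde dehydrogenase of valine and thymine breakdown, read 17229 in the control pool and 11425 in the Ad-PDK4 pool. It was 1.49-fold lower (-0.58), just short of the 1.5-fold threshold, and has a single probe set. Aldh8a1, which acts in the kynurenine pathway of tryptophan breakdown, read 13643 and 10039 (-0.43), and its second probe set gave -0.24. Aldh7a1, the lysine pathway enzyme, read 13499 and 11564 (-0.21), with 0.02 on a dimmer probe set. Aldh9a1, of carnitine synthesis, gave -0.09 and -0.19 on its 2 probe sets. Aldh4a1, of proline breakdown, gave -0.06, and Aldh5a1, the succinic semialdehyde dehydrogenase, gave 0.05.

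The highest and the dimmest genes of that group rest on probe sets that disagree. Aldh16a1, a member with little known enzymatic activity, read 493 in the control pool and 866 in the Ad-PDK4 pool on its brightest probe set, 1.77-fold higher (0.83). Its other probe set read 517 and 528 (0.04), and the median of both was 0.44, under 1.5-fold. Aldh18a1, the pyrroline carboxylate synthase that makes proline, is read by 5 probe sets around the floor. The brightest gave 131 and 89.8, a bound of -0.37, while another read 44.5 and 134, so no direction is given.

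**Figure D4:**
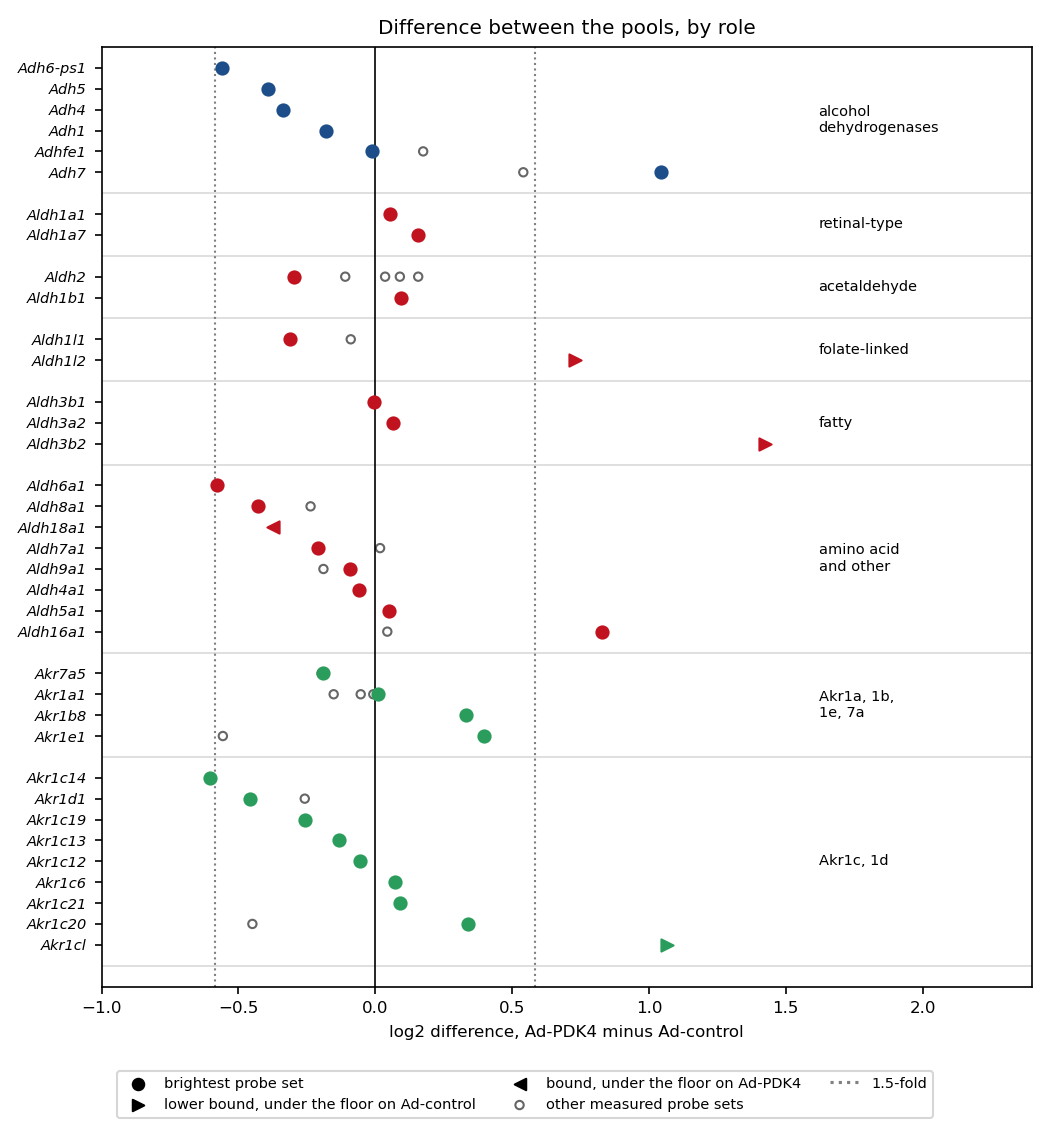
Log2 difference (Ad-PDK4 minus Ad-control) of the 36 members that reached the floor of either array, grouped by role. Filled circles are the brightest probe set, open circles the other measured probe sets, triangles bounds for genes under the floor on 1 array, and dotted lines 1.5-fold; Adh7 and Aldh16a1 lie beyond the upper line and Akr1c14 beyond the lower one, and open circles of Aldh2, Akr1e1 and Akr1c20 fall on the other side of 0.

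Akr1c14, a hydroxysteroid dehydrogenase of liver, was the lowest member. Its single probe set read 24249 in the control pool and 15815 in the Ad-PDK4 pool, 1.52-fold lower (-0.60). The value was -0.49 with quantile normalization, -0.52 with loess centring and -0.51 with centring on the hepatocyte markers, each under 1.5-fold. The Akr1c genes named here lie in one stretch of chromosome 13 and differed in both directions. Akr1c19 read 19779 and 16388 (-0.26), Akr1c13 read 9832 and 8883 (-0.13) and Akr1c12 read 9138 and 8701 (-0.06). A probe set that matches both Akr1c12 and Akr1c13 read 19647 and 18729 (-0.05), which shows that probes of these close paralogs can be shared. Akr1c6 differed by 0.07, and Akr1c21 by 0.09 at signals of 201 and 212. Akr1c20 read 7706 and 9655 (0.34), but its dimmer probe set read 418 and 303 (-0.45), so its direction is not settled.

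Akr1d1, the steroid reductase of bile acid synthesis, read 3203 in the control pool and 2312 in the Ad-PDK4 pool (-0.46), and its second probe set read 2125 and 1759 (-0.26). Both probe sets of this gene were thus lower. Akr1cl was under the floor on the Ad-control array (4.9 against 194) and at least 2.10-fold higher by its bound, a log2 value of 1.07 that became 2.44 with the floor at the 30th percentile; its other probe set was under the floor on both arrays, with 3.5 and 3.8.

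The general aldehyde reductases lay within 1.5-fold, on both sides of 0. All 4 probe sets of Akr1a1 lay between -0.15 and 0.01. Akr7a5, a reductase of aflatoxin aldehyde and succinic semialdehyde, read 6765 and 5873 (-0.19), and its second measured probe set gave -0.20. Akr1b8, an aldose reductase-like enzyme, read 332 and 413 (0.33). Akr1e1, an anhydrofructose reductase, read 1712 and 2231 (0.40), but a dimmer probe set read 232 and 156 (-0.56). Several probe sets were measured for 13 members, and those of 6 of them fell on both sides of 0.

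By family, the median of the 14 measured Aldh members was -0.03, which turned positive under 6 of 11 alternatives, up to 0.48 with the spike-in controls. That of the 12 measured Akr members was -0.02, and it turned positive under 4 of 11, up to 0.49. The direction of both medians therefore depends on the setting.

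Other enzymes that handle alcohols and carbonyls mostly differed to a similar extent. Of 16 measured on both arrays, 1 was at least 1.5-fold higher (6.25%, against 9.21% of all named genes), 0 were lower (5.2% of all), and the median was -0.07. Cbr3, a carbonyl reductase, was highest with 349 and 692 (2.002-fold), followed by Dhrs7, a short-chain dehydrogenase, with 0.46. Unlike the members, Cbr3 lay outside the central 95% of its bin, on a single measured probe set. Cat, the peroxisomal catalase that also oxidizes ethanol, was lowest with 61694 and 42456 (-0.52), followed by Dhrs3, a retinal reductase, with -0.50. Cyp2e1, the ethanol-oxidizing cytochrome, read 107908 and 91022 (-0.23).

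Genes of retinoid handling had a lower median than the families. Of 12 measured on both arrays, 3 were at least 1.5-fold lower (25.0%, against 5.2% of all named genes) and 0 higher (9.21% of all), with a median of -0.31, or 0.20 with the spike-in controls, where all named genes had 0.53. Cyp26a1, which degrades retinoic acid and is itself induced by it, read 661 in the control pool and 270 in the Ad-PDK4 pool (-1.28). Rarg, a retinoic acid receptor gene, read 234 and 117 (-0.99), and Rdh16, a retinol dehydrogenase, read 1392 and 831 (-0.73). Each of these 3 values rests on a single measured probe set and lay outside the central 95% of its bin. Rdh11 (0.37) and Rdh5 (0.12), also retinol dehydrogenases, were the highest. The other measured probe set of Rdh11 gave -0.14, so its direction is not settled. With the floor at the 70th percentile 9 genes of the list were measured and 1 was at least 1.5-fold lower. Among the members, the retinal dehydrogenases Aldh1a1 (0.06) and Aldh1a7 (0.16) lay above 0.

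Regulators known to act on these families were mostly at similar signals. Of 12 measured, 11 lay within 1.5-fold, 1 was higher (8.33%, against 9.21% of all named genes) and 0 lower (5.2% of all), and the median was -0.03. Nfe2l2, which encodes NRF2, read 3681 and 5472 (0.59) on 1 probe set. That value was under 1.5-fold with the scaling as deposited, the floor at the 30th percentile, no floor or log2(signal + 50). Keap1, the inhibitor of NRF2, gave 0.21. Dbp, a circadian factor, gave -0.33 and the nuclear receptor Nr1i3 (CAR) gave -0.21. Whether these values bear on the members was not tested.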

How the data were processed

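Total liver RNA of each pool was labelled with biotin by the Affymetrix procedure from 10 ug, per the labels' protocols. The deposited table holds 1 linear signal intensity for each of 45101 probe sets per array. The steps of probe summary and background correction were not given in the sources used here. Without the highest and lowest values both deposited intensity columns average 500.0, so each array appears scaled to a common target. Detection calls were not used here, and the number of arrays limits the precision. The 3'/5' signal ratio of the beta-actin control was 4.88 (Ad-control) and 5.46 (Ad-PDK4). That of the Gapdh control was 0.78 and 0.81. The median log2 difference was -0.51 for the poly-A spike-in controls and -0.26 for the hybridization controls.

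Control probe sets (64) were set aside. Of the remaining 45037, 34945 carry 1 symbol in the platform annotation. All 43 members were found by Entrez identifier in RefSeq, 0 with a changed symbol. They are read by 74 probe sets of their own; 3 more match several genes.

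The floor was the 50th percentile of each array. Log2 differences were centred on the median of 20151 probe sets above it on both arrays, a shift of -0.01. A gene was given by its probe set of highest mean log2 signal, and has only a bound where 1 array lies under its floor. Every member is accounted for, members above a floor are described with values, and of other gene lists the 2 highest and 2 lowest genes are named (Cyp2e1 and Rdh16 were chosen after their values were seen). A fold of 1.5 counted as called. Members and lists were chosen with earlier results of these data known. The calculations were checked on simulated data, in Python 3.11.15 with pandas 2.3.3, numpy 2.4.6 and statsmodels 0.14.6. Alternatives changed the floor (30th or 70th percentile, or none), the pseudocount (50), the probe set rule and the scaling. A planned comparison of protein sequences was not run.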

Additional observations from a re-analysis of the deposited data

How the results depend on the processing

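No paired analysis was possible because each group is 1 pool. Counts of members past 1.5-fold depended on the floor and the reference. Beside each count is the members' share against that of all named genes. The 2 members higher became 5 with the floor at the 30th percentile (13.2% against 13.3%), 1 at the 70th (3.57% against 5.30%), 8 with no floor (18.6% against 21.4%), 6 with log2(signal + 50) (14.0% against 12.8%), 1 with the median over probe sets (3.13% against 8.18%) and 9 with centring on the poly-A spike-in controls (28.1% against 43.8%). The 1 member lower became 2 at the 30th percentile (5.26% against 8.13%), 5 with no floor (11.6% against 16.8%), 2 with log2(signal + 50) (4.65% against 8.84%), 2 with the scaling as deposited (6.25% against 5.51%), 0 with the spike-in controls (0.45% of all) and 0 with the hepatocyte markers (3.70% of all). The shares of the members thus stayed near or below those of all named genes. With quantile normalization and with loess centring the count of lower members stayed at 1, but the gene was Adh6-ps1 (-0.61 and -0.60) in place of Akr1c14. Dim genes entering without a floor carry the larger counts there: 43 members were then compared, against 32. Centring on the spike-in controls shifts all values by the same amount, and gave medians of 0.46 for all members, 0.48 for Aldh, 0.26 for Adh and 0.49 for Akr. The other alternatives left these medians within the probe set SD of 0.35. Of 389 single-gene values under the 11 alternatives, 346 stayed within that SD, 43 moved further, and 0 of the differences past 1.5-fold changed sign. The scaling as deposited and centring on the hepatocyte markers shift all values by one small amount, so values had to stay within that SD there. The count of sign changes covers only Adh7, Aldh16a1, Akr1c14 and the bounds of Akr1cl, Aldh1l2 and Aldh3b2. Smaller differences did change sign, such as Adhfe1 under 7 of 11 alternatives and Akr1a1 under 5. The moves without a change of reference were those of Adh7 (0.18 at the 70th percentile), Akr1cl (2.44 at the 30th percentile, 5.29 with no floor and 2.14 with the pseudocount) and, with the median over probe sets, Akr1c20 (-0.05), Akr1e1 (-0.08) and Aldh16a1 (0.44). With the floor at the 70th percentile Adh6-ps1, Akr1c21, Akr1cl, Aldh18a1, Aldh1l2, Aldh3b1 and Aldh3b2 gave no value. With 1 pool per group, animal variation, pooling and hybridization error cannot be told apart from the difference between vectors.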
